A study of Mus musculus with 6 samples.

Results

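Mitochondrial ribosomal protein genes were compared between bone marrow stromal cells of miR-188 knockout mice (KO) and of wild-type mice (WT), both kept in adipogenic medium. The genes were taken by symbol, as Mrpl or Mrps followed by a digit, with pseudogenes left out. Of the probe sets assigned to a single gene, the brightest on average over the 6 arrays stood for it. This gave 77 of the 19938 genes measured. The gene table used here lists 78 protein-coding genes of this name, and the remaining gene, Mrpl53, shares its probe set with Ccdc142 and entered no count.

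Bone marrow stromal cells are the adherent marrow cells that can become adipocytes or osteoblasts, and the study asked how miR-188, a microRNA, bears on that choice with age. The KO group held 3 arrays and the WT group 3, all from C57BL/6 mice 6 months old. The medium, the same for both genotypes, held 1 µM dexamethasone, insulin at 5 µg/ml, 0.5 mM 3-isobutyl-1-methylxanthine and fetal calf serum at 10%. Each single-colour Affymetrix array took 6 µg of RNA. The labels name the replicates biological without saying whether each was a separate mouse, and p-values refer to the spread among these 6 cultures. The sources used here do not give how much of the locus was deleted or how long the induction lasted. The Mir188 probe set differed by −0.10 (limma, adjusted p = 0.348), which does not check the genotype labels, and KO stands for the arrays so labelled.

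Mitochondria carry their own ribosome, which translates the few proteins encoded by mitochondrial DNA, all of them core subunits of the respiratory chain and the ATP synthase. Its ribosomal RNAs come from mitochondrial DNA, while all of its proteins are encoded in the nucleus, made in the cytosol and imported. Symbols with Mrpl belong mostly to the large subunit, which joins amino acids into a chain, and those with Mrps mostly to the small subunit, which reads the messenger RNA. Some of the proteins have a counterpart in the bacterial ribosome and others are found only in mitochondrial ribosomes. Fat cell differentiation is known to go with an increase in mitochondrial content.

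The mitochondrial ribosomal protein genes changed little in the KO arrays. Of the 77 genes, 1 rose (Mrpl49), 3 fell (Mrps24, Mrpl34 and Mrpl24) and 73 did not pass the test, which was limma's moderated test with Benjamini-Hochberg adjustment over all 19938 genes and a threshold of 0.05 on the adjusted p. That is 5.19% of the members, against 7.31% of all genes called in either direction. Among the 9640 genes whose mean level lay between that of the lowest and that of the highest member, 11.5% were called. The calls upward made up 3.34% of all genes and 5.52% of those in this range of level, and the calls downward 3.97% and 6%. At an unadjusted p under 0.05 there were 15 members, or 19.5%, beside 20.7% of all genes. These shares lay near or below the background and are no result about the members. The count of members called was 3 without WT replicate 2 and 2 without KO replicate 2. It was 1 in each fit without WT replicate 1, KO replicate 1 or KO replicate 3. It was 0 without WT replicate 3, where 11 had an unadjusted p under 0.05, beside 15.2% of all genes. Calls over all genes fell as well, from 7.31% to 4.67%, 4.15%, 2.48%, 4.13%, 3.07% and 0.948% in the same order of fits. A call lost in such a fit therefore does not set a gene apart by itself. With either renormalization the count of members called was 3, of which 2 were lower (Mrpl13 and Mrps24), beside 7.53% and 7.65% of all genes. With array weights it was 13, beside 17.1% of all genes, and with only the genes above background tested it was 8, beside 16.7%. In bulk RNA of this kind, fewer cells of a type and less RNA per cell cannot be told apart.

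The differences were small as well as few. KO minus WT ran from −0.27 for Mrpl22 to 0.22 for Mrps2 on the log2 scale. For 75 of the 77 genes the difference was under 1.2-fold, and for 56 it was smaller than 0.1 in size. The median size of a difference was 0.052 among the members and 0.058 over all genes. The 95% interval of the difference lay within 0.2 of zero on both sides for 51 members, and it reached a change of 1.5-fold for 0 members. All 77 genes lay above the background level of 6.83, which is the 95th percentile of 1027 olfactory receptor genes.

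**Figure D1:**
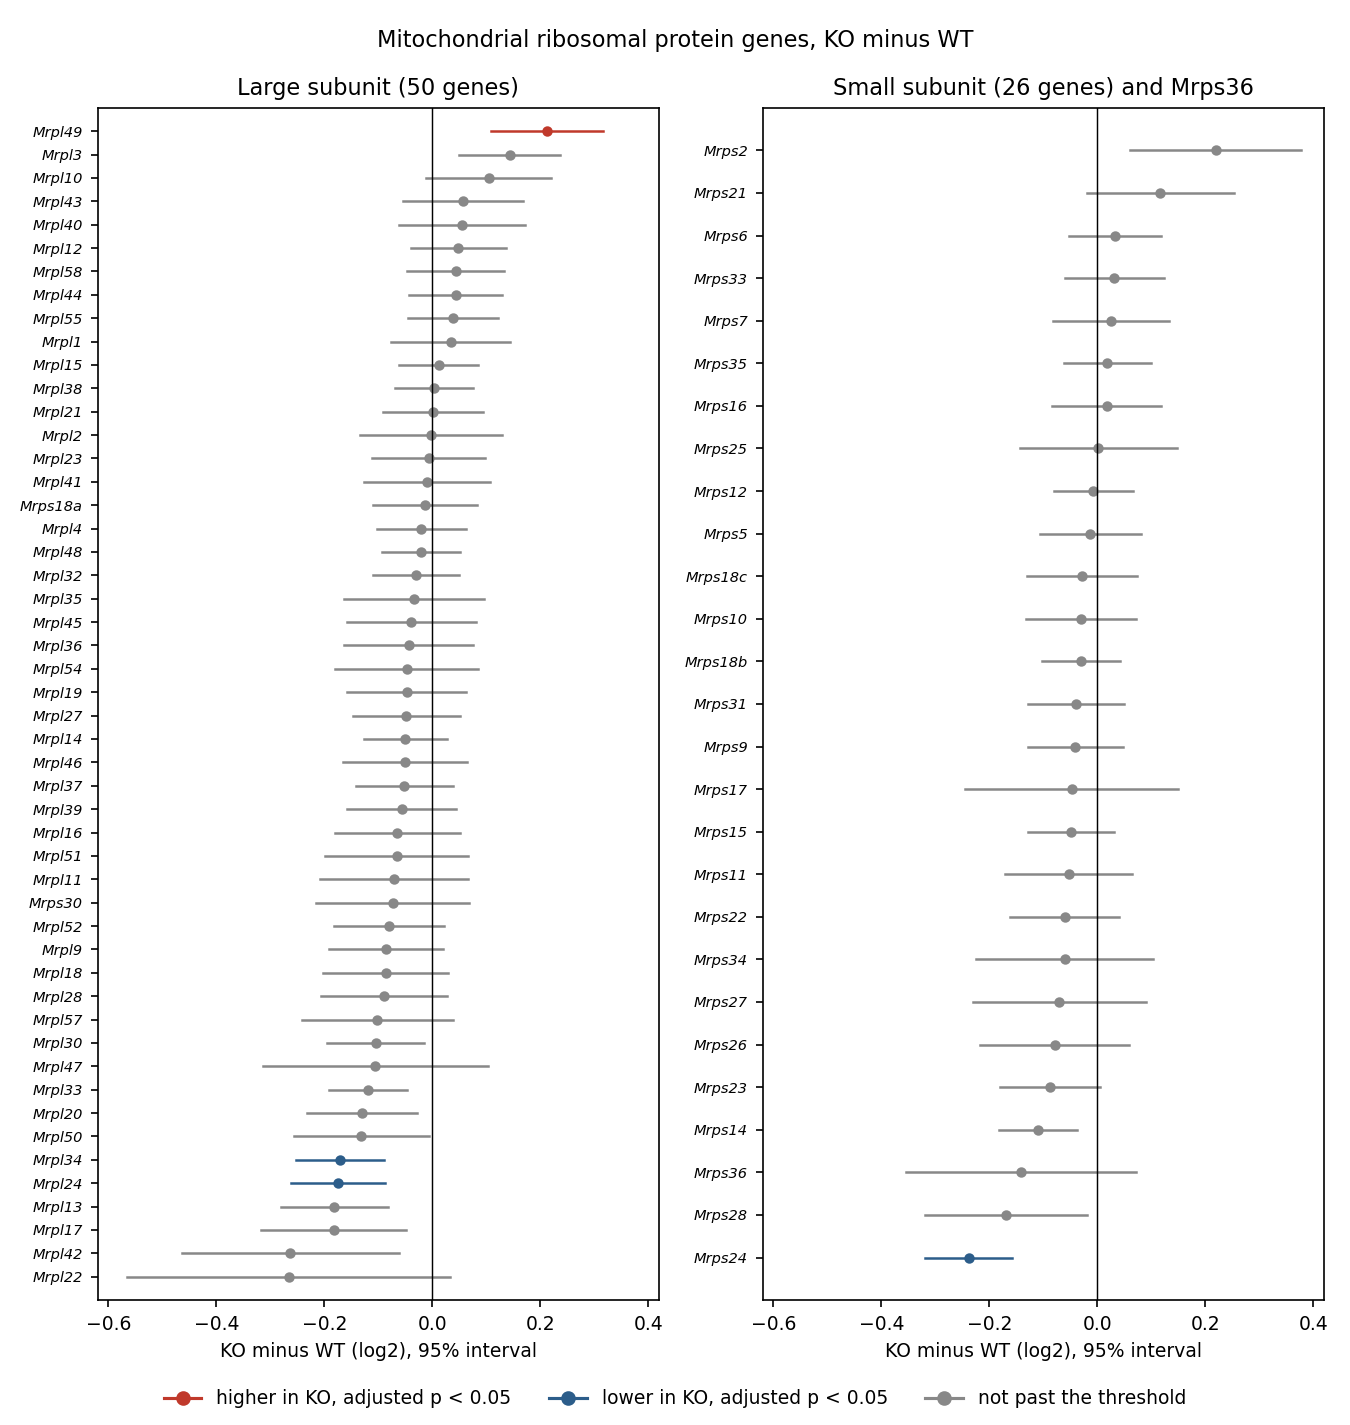
KO minus WT (log2, horizontal axis) of each of the 77 genes, as points with 95% intervals from limma, with the large subunit in the left panel and the small subunit and Mrps36 in the right one. Mrpl49 is the only gene past the threshold on the right of zero, Mrps24, Mrpl34 and Mrpl24 are those past it on the left, and 56 of the 77 points lie left of zero.

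The direction was uneven. Of the 77 differences 56 were below 0, and their median was −0.047, beside 0.0046 for all genes. In 14 members (18.2%) all 3 KO arrays lay below all 3 WT arrays, as in 13.5% of all genes and in 18.9% of the genes in the same range of level. In 3 members (3.90%) all 3 KO arrays lay above all 3 WT arrays, beside 11.4% of all genes and 16.9% of those in the range of level. RMA scales the arrays to a common distribution before probes are combined, so a shift common to every transcript would not be seen. The scaling left small differences between arrays, with medians over all genes from 7.554 in WT replicate 1 to 7.595 in KO replicate 1. With equal array medians the members' median was −0.059, and with a further quantile step it was −0.025.

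The typical difference of a gene on these arrays varied with its level, and the members were set beside other genes in steps of 1 log2 unit of level. Between 7 and 8, the 10 members had a median of −0.029 and the 3875 other genes one of 0.017. Between 8 and 9, the 22 members had a median of −0.065 and the 3217 other genes one of 0.0037. The gap was smaller above that. Between 9 and 10, the 33 members had a median of −0.030 and the 2562 other genes one of −0.016. Between 10 and 11, the medians were −0.039 for 12 members and −0.036 for 1558 other genes. All 4 calls among the members fell in these upper bins, 1 in the lower and 3 in the higher of them, where 15.7% and 19.6% of the other genes were called.

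**Figure D2:**
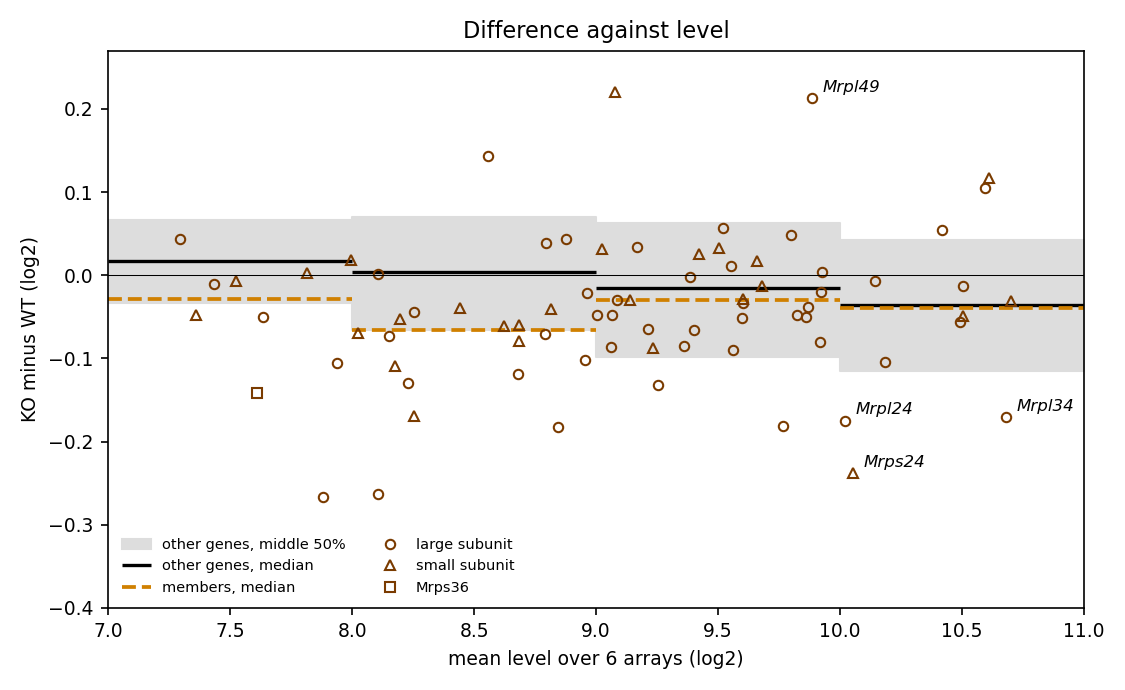
KO minus WT (log2, vertical axis) against mean level over the 6 arrays (log2, horizontal axis) for the 77 genes, with circles for the large subunit, triangles for the small subunit and a square for Mrps36. The grey band is the middle 50% of the other genes in each bin, the black line their median and the dashed line the members' median, which lies below the black line between 7 and 9 and close to it between 10 and 11.

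The shift was also uneven over the arrays. Each gene was set against its own mean over the 6 arrays, and the median over the 77 members was −0.036, −0.022 and −0.0025 in the KO arrays and 0.044, −0.0089 and 0.023 in the WT arrays. WT replicate 1 was the highest and WT replicate 2 lay below 0, among the KO arrays. WT replicate 1 held the highest value of the 6 arrays for 36 of the 77 members, or 46.8%, beside 27.3% of the genes in the same range of level and 18.8% of all genes. This was so for 28 of the 50 large subunit genes (56%) and for 7 of the 26 small subunit genes (26.9%), where KO replicate 3 held the highest value for 9. Without WT replicate 1 the median difference of the members was −0.024, and without KO replicate 1 it was −0.026. Over the 15 alternative settings the median stayed between −0.059 and −0.020.

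Mrps24 had the smallest p of the 77 genes. It encodes a protein of the small subunit's head that has a bacterial counterpart at the messenger RNA entry. Its level was 9.91, 9.93 and 9.96 in the KO arrays, against 10.20, 10.17 and 10.15 in the WT arrays. The groups did not overlap, and the gap between them was wider than the spread within either. Mrps24 fell by 0.24 (SE 0.03, limma adjusted p = 0.0111). It passed the threshold in 5 of the 6 fits that left out 1 array and missed it without WT replicate 3 (adjusted p = 0.0586).

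Mrpl34, a small protein of the large subunit with a bacterial counterpart, was also among the most abundant members by level. It had 10.62, 10.57 and 10.60 in the KO arrays, against 10.79, 10.77 and 10.73 in the WT arrays. All KO arrays were lower than all WT arrays. Mrpl34 fell by 0.17 (SE 0.03, limma adjusted p = 0.0335). It missed the threshold in each of the 6 fits without 1 array, with adjusted p between 0.0597 and 0.0987. The difference stayed between −0.19 and −0.16 in these fits. Mrpl34 also missed with a further quantile step (0.1002) and with cyclic loess (0.0699).

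Mrpl24, which has a bacterial counterpart at the rim of the tunnel where the new chain leaves the large subunit, had 9.96, 9.91 and 9.94 in the KO arrays, against 10.13, 10.06 and 10.14 in the WT arrays. Here too the groups did not overlap. Mrpl24 fell by 0.17 (SE 0.04, limma adjusted p = 0.0376). It passed the threshold in 1 of the 6 fits, that without WT replicate 2, and in the other fits the adjusted p was 0.0746 to 0.158. It also missed with a further quantile step (0.0530) and with cyclic loess (0.0502). The difference of Mrpl24 in the 6 fits stayed between −0.20 and −0.16.

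Mrpl49 belongs to the mitochondria-specific proteins of the large subunit and was the gene that rose. Its level was 10.04, 9.95 and 9.98 in the KO arrays, against 9.83, 9.78 and 9.72 in the WT arrays. Every KO array was above every WT array. The rise was 0.21 (SE 0.04, limma adjusted p = 0.0352). In the 6 fits without 1 array the adjusted p was 0.0646 to 0.138, so the call was lost in each of them. The difference stayed between 0.18 and 0.24 in these fits, in which calls over all genes fell to between 0.948% and 4.67%.

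**Figure D3:**
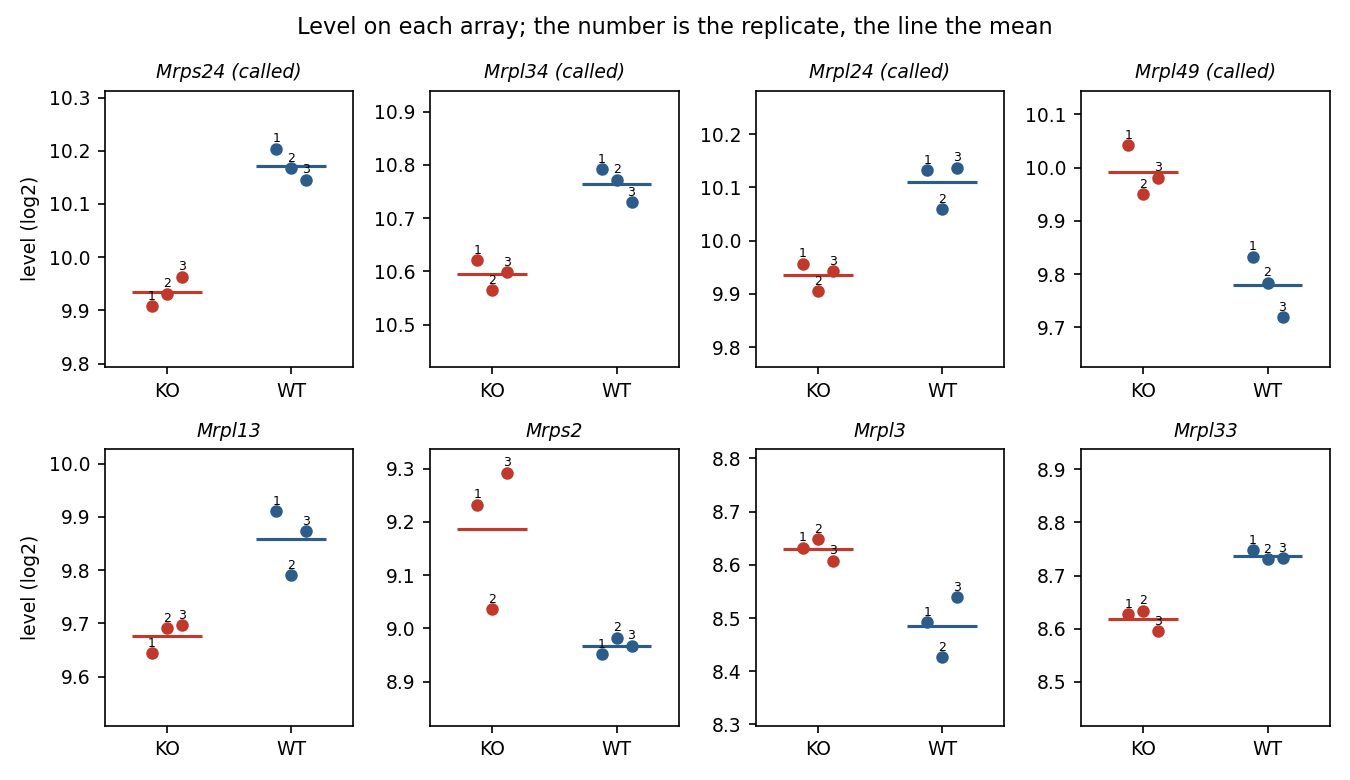
Level (log2, vertical axis, a range of its own for each gene) on each array of the 4 called genes and of Mrpl13, Mrps2, Mrpl3 and Mrpl33, with KO left of WT, the replicate number above each point and a line at the group mean. In all 8 genes the 3 KO points lie on one side of the 3 WT points, and in Mrps2 KO replicate 2 lies near the WT arrays.

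The promoters of these 4 genes are shown as the regulatory sequence of the members that passed the test, and those of Mrps26 and Mrps27 as examples that hold sites of more than 1 factor. Promoters of nuclear genes for mitochondrial proteins are known for binding sites of NRF1, of GABP and of YY1. Each sequence is the RefSeq window on GRCm38.p6 that runs from 250 bases before to 50 bases after the annotated start, written in the direction of the gene. Capitals mark a match to GCGC and TGCGC set apart by any 1 base for NRF1, to CCGGAAGT for GABP or to AAGATGGCG for YY1, on either strand. Mrps24 lies at chr11:5707652-5707951 on the minus strand, Mrpl34 at chr8:71464676-71464975 on the plus strand, Mrpl24 at chr3:87919294-87919593 on the plus strand and Mrpl49 at chr19:6057706-6058005 on the minus strand. Mrps26 lies at chr2:130563507-130563806 and Mrps27 at chr13:99344536-99344835, both on the plus strand.
Mrps24: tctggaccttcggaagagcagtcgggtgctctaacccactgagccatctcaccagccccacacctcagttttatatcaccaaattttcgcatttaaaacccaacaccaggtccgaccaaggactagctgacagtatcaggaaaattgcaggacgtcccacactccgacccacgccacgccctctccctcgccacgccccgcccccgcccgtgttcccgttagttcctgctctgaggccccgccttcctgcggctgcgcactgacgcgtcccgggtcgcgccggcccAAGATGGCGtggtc
Mrpl34: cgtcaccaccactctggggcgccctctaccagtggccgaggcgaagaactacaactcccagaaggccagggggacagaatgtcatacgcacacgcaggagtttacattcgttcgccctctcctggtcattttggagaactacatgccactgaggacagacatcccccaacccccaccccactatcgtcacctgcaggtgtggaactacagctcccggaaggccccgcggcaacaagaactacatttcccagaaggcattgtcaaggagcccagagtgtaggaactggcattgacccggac
Mrpl24: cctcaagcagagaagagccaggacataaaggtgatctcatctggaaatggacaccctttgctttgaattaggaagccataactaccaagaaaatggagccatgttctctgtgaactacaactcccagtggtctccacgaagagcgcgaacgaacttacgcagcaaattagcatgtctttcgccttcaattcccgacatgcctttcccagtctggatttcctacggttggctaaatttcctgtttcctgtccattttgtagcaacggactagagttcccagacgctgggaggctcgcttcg
Mrpl49: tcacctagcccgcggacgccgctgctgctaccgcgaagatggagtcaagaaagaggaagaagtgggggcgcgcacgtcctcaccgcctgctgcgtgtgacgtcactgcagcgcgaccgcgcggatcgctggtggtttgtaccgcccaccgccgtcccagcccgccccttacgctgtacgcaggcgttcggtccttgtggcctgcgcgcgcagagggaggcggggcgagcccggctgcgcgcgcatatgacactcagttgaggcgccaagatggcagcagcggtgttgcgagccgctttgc
Mrps26: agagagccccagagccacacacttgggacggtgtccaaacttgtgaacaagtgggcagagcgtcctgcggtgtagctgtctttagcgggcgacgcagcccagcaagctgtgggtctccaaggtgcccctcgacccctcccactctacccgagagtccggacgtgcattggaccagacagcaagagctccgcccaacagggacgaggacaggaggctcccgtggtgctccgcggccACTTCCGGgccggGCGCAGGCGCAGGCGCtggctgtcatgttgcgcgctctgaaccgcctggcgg
Mrps27: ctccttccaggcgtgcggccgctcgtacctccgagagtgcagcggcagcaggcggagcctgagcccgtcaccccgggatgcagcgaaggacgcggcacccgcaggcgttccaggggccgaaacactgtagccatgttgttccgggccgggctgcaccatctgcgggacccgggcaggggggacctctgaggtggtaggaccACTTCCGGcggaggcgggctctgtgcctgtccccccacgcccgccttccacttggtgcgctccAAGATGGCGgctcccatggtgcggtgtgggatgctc
The window of Mrps24 holds a YY1 match close to its downstream end. No match to the 3 motifs was found in the windows of Mrpl34, Mrpl24 and Mrpl49, which says only that these letters are not in them. Mrps26 holds overlapping NRF1 matches beside a GABP match, and Mrps27 a GABP and a YY1 match.

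Of the 77 members 68 had a promoter in the table, and the motifs, whose spellings were chosen after several had been searched, were common among them. The NRF1 motif was in 13 (19.1%), beside 5.19% of 27025 promoters. The GABP motif was in 12 (17.6%), beside 4.31%, and the YY1 motif in 8 (11.8%), beside 1.64%. At least 1 of the motifs was in 31 of the 68 (45.6%), beside 10.3% of all promoters, and matches of different motifs overlapped in 0 cases. Members with a match differed little from those without. Their median difference was −0.052 with any of the motifs and −0.030 with none, and 1 member with a match was called, Mrps24. A match is a run of letters and was not tested as a binding site.

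**Figure D4:**
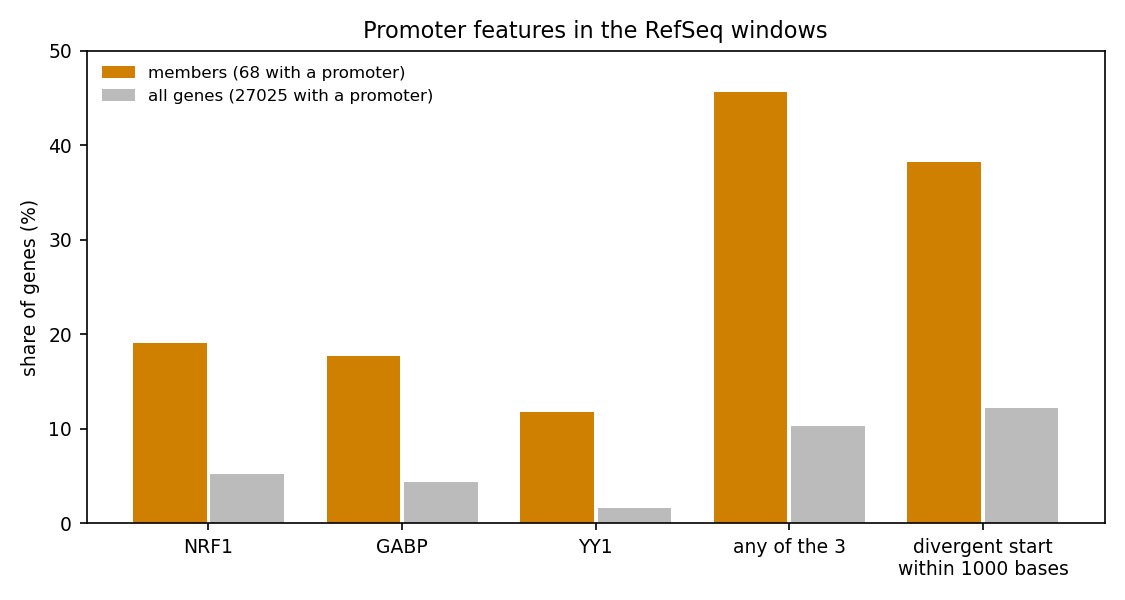
Share of genes (%, vertical axis, from 0) whose RefSeq promoter window holds each motif, any of the 3 motifs, or a neighbouring gene that starts within 1000 bases in the opposite direction, with members left of all genes. The members' bar is the taller one for each feature, from 11.8% beside 1.64% for YY1 to 45.6% beside 10.3% for any motif.

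Many of these genes start back to back with another gene. A gene on the other strand started within 1000 bases of 26 of the 68 members (38.2%), beside 12.2% of all genes with a promoter. The median difference was −0.039 for these members and −0.046 for the others. Of the 24 partners measured, which include the members Mrpl46 and Mrps11, 2 were called, beside 7.31% of all genes. That count is near the background and is no result about the partners. Both of the called partners fell. Ska3, a protein that couples chromosomes to the spindle, starts 76 bases from Mrpl57 and had 8.01, 8.32 and 8.16 in the KO arrays, against 8.53, 8.51 and 8.55 in the WT arrays (−0.37, limma adjusted p = 0.0354). Mrpl57, a mitochondria-specific protein of the large subunit, had a difference of −0.10 (limma adjusted p = 0.408). Ncapd2, a condensin subunit, starts 614 bases from Mrpl51 and had 9.05, 9.01 and 9.04 in the KO arrays, against 9.37, 9.26 and 9.35 in the WT arrays (−0.29, limma adjusted p = 0.0108). Mrpl51 itself had a difference of −0.07. Mrpl49 starts 192 bases from Fau, the gene of a cytosolic ribosomal protein, whose difference was 0.05 (limma adjusted p = 0.496). Mrpl46 and Mrps11, of the large and the small subunit, start 42 bases apart and had differences of −0.05 each.

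The large subunit had 50 measured genes. Of these 1 rose, 2 fell and 47 did not pass, so 6% were called, beside 7.31% of all genes. Of the 50 differences 37 were below 0, and their median was −0.048 (−0.021 without WT replicate 1, −0.032 without KO replicate 1). These members include Mrps30 and Mrps18a, which structures place in the large subunit despite their symbols. Mrpl13, which has a bacterial counterpart, came closest to the threshold without passing. It had 9.64, 9.69 and 9.70 in the KO arrays, against 9.91, 9.79 and 9.87 in the WT arrays (−0.18, SE 0.04, limma adjusted p = 0.0501). The groups did not overlap, and the gene passed in 6 of the 15 alternative settings, among the fits without 1 array only in that without WT replicate 2 (adjusted p = 0.0422). Mrpl33, a small protein with a bacterial counterpart, had 8.63, 8.63 and 8.60 in the KO arrays, against 8.75, 8.73 and 8.73 in the WT arrays (−0.12, limma adjusted p = 0.0696). The groups did not overlap, and each spanned less than the gap between them. Mrpl3, which in bacteria reaches towards the site where the peptide bond is made, had 8.63, 8.65 and 8.61 in the KO arrays, against 8.49, 8.43 and 8.54 in the WT arrays (0.14, limma adjusted p = 0.0830). Every KO array exceeded every WT array. The widest intervals of the subunit belonged to Mrpl22, whose KO arrays were 7.61, 7.62 and 8.01 and whose WT arrays were 8.19, 7.96 and 7.89. There KO replicate 3 lay inside the range of the WT arrays, and the difference of −0.27 had an SE of 0.13 (limma adjusted p = 0.302).

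By place in the large subunit, medians of few genes varied with the array left out. The 8 measured genes of the rim of the exit tunnel had a median of −0.081, with 1 lower (Mrpl24) and 7 of 8 differences below 0. That call is 12.5% of few genes, beside 7.31% of all genes. Without WT replicate 1, which held the highest value for 5 of the 8, the median was −0.029 with 5 differences below 0, and it was −0.042 without KO replicate 1 and −0.13 without WT replicate 2. The 7 genes of the central protuberance had a median of −0.021 (−0.011 without WT replicate 1, −0.0054 without KO replicate 1), and the limma test called 0 of them, with 0 at an unadjusted p under 0.05. The stalk, which recruits translation factors, consists here of Mrpl12, its anchor Mrpl10 and Mrpl11 at the base, with a median of 0.048 (0.027 without KO replicate 1). Mrpl10 had 10.73, 10.56 and 10.66 in the KO arrays, against 10.54, 10.56 and 10.53 in the WT arrays (0.10, limma adjusted p = 0.294). KO replicate 2 lay among the WT arrays. Mrpl12 had 9.87, 9.78 and 9.83 in the KO arrays, against 9.76, 9.81 and 9.76 in the WT arrays, and the groups overlapped (0.05, limma adjusted p = 0.541). Mrpl44, a protein of the ribonuclease III family at the tunnel exit, had the lowest level of all members at 7.32, 7.30 and 7.33 in the KO arrays and 7.30, 7.22 and 7.30 in the WT arrays.

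The small subunit had 26 measured genes. Of these 0 rose by limma (1 was higher and 3 were lower at an unadjusted p under 0.05), 1 fell and 25 did not pass. That is 3.85% called and 15.4% at the unadjusted threshold, beside 7.31% and 20.7% of all genes. The median of the subunit was −0.035 (−0.023 without WT replicate 3, −0.018 without KO replicate 1), and 18 of its differences were below 0. Mrps2, with a bacterial counterpart, had the highest difference of all members. Its level was 9.23, 9.04 and 9.29 in the KO arrays, against 8.95, 8.98 and 8.97 in the WT arrays (0.22, SE 0.07, limma adjusted p = 0.111). The groups did not overlap, but KO replicate 2 was nearer to the WT arrays than to the other KO arrays. Without KO replicate 2 the difference of Mrps2 was 0.30, past the threshold (limma adjusted p = 0.0274). Mrps14, of the head of the subunit, had 8.13, 8.13 and 8.10 in the KO arrays, against 8.22, 8.24 and 8.24 in the WT arrays (−0.11, limma adjusted p = 0.0877). The 8 genes of the head had a median of −0.035 (−0.016 without WT replicate 2, −0.019 without KO replicate 3).

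The other small subunit genes examined on every array stayed further from the threshold. Mrps28 had 8.27, 8.03 and 8.21 in the KO arrays, against 8.37, 8.32 and 8.32 in the WT arrays (−0.17, limma adjusted p = 0.189). Mrps23, a mitochondria-specific protein, had 9.15, 9.23 and 9.18 in the KO arrays, against 9.32, 9.23 and 9.28 in the WT arrays (−0.09, limma adjusted p = 0.269). KO replicate 2 and WT replicate 2 of Mrps23 had equal values. On the upper side Mrps21, with a bacterial counterpart, had 10.62, 10.66 and 10.73 in the KO arrays, against 10.58, 10.45 and 10.63 in the WT arrays (0.12, limma adjusted p = 0.320). Mrps6, likewise with a bacterial counterpart, differed by 0.03, with KO arrays from 9.48 to 9.55 and WT arrays from 9.45 to 9.51. Mrps33, mitochondria-specific, also differed by 0.03, with KO arrays from 9.01 to 9.05 and WT arrays from 8.95 to 9.05. In all 3 of these genes the groups overlapped. At the ends of the range of level, Mrps18b had 10.67, 10.68 and 10.71 in the KO arrays and 10.71, 10.71 and 10.72 in the WT arrays (−0.03), and Mrps17 had 7.22, 7.40 and 7.39 in the KO arrays and 7.51, 7.23 and 7.41 in the WT arrays (−0.05). The sign of Mrps18b turned under both renormalizations, to 0.016 with a further quantile step and to 0.0065 with cyclic loess, and that of Mrps17 to 0.017 without WT replicate 1 and to 0.0097 without KO replicate 1.

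The medians were close between proteins with a bacterial counterpart and those found only in mitochondria. The 44 genes with a bacterial counterpart had a median of −0.046, and 0 rose and 3 fell by limma, with 2 higher and 9 lower at an unadjusted p under 0.05. The 29 mitochondria-specific genes had a median of −0.047, and 1 rose and 0 fell, with 1 higher and 2 lower at an unadjusted p under 0.05. Limma thus called 6.82% of the former and 3.45% of the latter, beside 7.31% of all genes. An unadjusted p under 0.05 was found for 20.7% of all genes. A further 4 members were not classed. Mrps36, known also as a component of the 2-oxoglutarate dehydrogenase complex and not as a ribosome subunit, had a difference of −0.14 (SE 0.09, limma adjusted p = 0.450).

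In the rest of the mitochondrial translation machinery the calls ran in both directions. By list, their share lay below or above the 7.31% of all genes. Other subunits of the ribosome without an Mrp symbol were measured for 4 genes, with a median of −0.077. Limma called 0 of them, and 0 had an unadjusted p under 0.05. Among them Dap3, a GTP-binding protein of the small subunit, differed by −0.04 and the pentatricopeptide protein Ptcd3 by −0.12. Of 25 assembly factors limma called 0, and their median was −0.017. At an unadjusted p under 0.05 there were 1 higher and 4 lower, beside 20.7% of all genes. The nearest to the threshold was Mpv17l2, an assembly factor of the inner membrane, at 10.19, 10.18 and 10.22 in the KO arrays, against 10.33, 10.31 and 10.38 in the WT arrays (−0.14, limma adjusted p = 0.0501).

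Of 15 translation factors, 2 rose and 1 fell (20%, beside 7.31% of all genes), with a median of −0.015. Mtif3, which initiates mitochondrial translation, had 8.57, 8.59 and 8.58 in the KO arrays, against 8.41, 8.36 and 8.38 in the WT arrays. It rose by 0.20 (SE 0.03, limma adjusted p = 0.0148), and it missed the threshold without WT replicate 3 and without KO replicate 3 (adjusted p = 0.0564 to 0.0851). Taco1, an activator of the translation of cytochrome oxidase subunit I, rose by 0.17 (limma adjusted p = 0.0332). Gfm1, the elongation factor that moves the ribosome along the messenger RNA, had 8.62, 8.75 and 8.70 in the KO arrays, against 8.91, 8.87 and 8.86 in the WT arrays, and fell by 0.19 (limma adjusted p = 0.0496). Its partner Tufm, which delivers aminoacyl-tRNA, differed by −0.06 (limma adjusted p = 0.535). Of 16 mitochondrial aminoacyl-tRNA synthetases 1 rose and 1 fell (12.5%). Both shares rest on few genes. Tars2, which charges threonine tRNA, fell by 0.14 (limma adjusted p = 0.0471), and Pars2, which charges proline tRNA, rose by 0.17 (limma adjusted p = 0.0298) at a level below background. In the 6 fits without 1 array the adjusted p was 0.0518 to 0.136 for Taco1 and 0.0546 to 0.154 for Gfm1. It was 0.0730 to 0.187 for Tars2 and 0.0507 to 0.122 for Pars2. Each of these calls was lost whichever array was left out, while each difference kept its direction. Calls over all genes fell to between 0.948% and 4.67% in these fits.

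Upstream of the ribosome, Ppargc1a, a coactivator that raises the transcription of mitochondrial genes, stood out among 9 regulators. Its level was 9.62, 9.57 and 9.56 in the KO arrays, against 9.19, 9.17 and 9.17 in the WT arrays. It rose by 0.41 (SE 0.03, limma adjusted p = 0.0029) and passed in all 6 fits without 1 array. With replicate number as a block it missed (limma adjusted p = 0.0506), a setting in which 0.261% of all genes were called. The factors whose motifs were searched differed by 0.05 for Nrf1, 0.01 for Gabpa and 0.06 for Yy1, each with overlapping groups and an adjusted p above the threshold (0.675, 0.942 and 0.561). Of 13 genes of mitochondrial transcription and RNA processing, 0 rose and 1 fell by limma, with 0 higher and 5 lower at an unadjusted p under 0.05. That is 7.69% called, beside 7.31% of all genes, of which 20.7% had an unadjusted p under 0.05. Prorp, the nuclease subunit of mitochondrial ribonuclease P, fell by 0.21 (limma adjusted p = 0.0416), a call lost in each fit without 1 array (adjusted p = 0.0689 to 0.163). Its difference stayed between −0.24 and −0.17 in those fits. Tfam, which packages mitochondrial DNA and starts its transcription, had 6.67, 6.73 and 6.69 in the KO arrays, against 6.95, 6.80 and 6.95 in the WT arrays (−0.20, limma adjusted p = 0.0593), around the background level. Of the messenger RNAs that the mitochondrial ribosome translates, 2 had a value. ND3, of complex I, differed by 0.32 (SE 0.12, limma adjusted p = 0.199) and COX2, of cytochrome oxidase, by 0.17 (SE 0.10, limma adjusted p = 0.419).

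Among 19 genes of mitochondrial import and proteases 0 rose and 2 fell by limma, with 1 higher and 9 lower at an unadjusted p under 0.05. That is 10.5% called, beside 7.31% of all genes, of which 20.7% had an unadjusted p under 0.05. Spg7, which with Afg3l2 forms the inner-membrane protease that matures the ribosomal protein Mrpl32, had 7.58, 7.61 and 7.71 in the KO arrays, against 7.89, 7.89 and 7.88 in the WT arrays. It fell by 0.25 (limma adjusted p = 0.0181), while Afg3l2 differed by 0.10 (limma adjusted p = 0.0986) and Mrpl32 by −0.03. Hspd1, the mitochondrial chaperonin, fell by 0.19 (limma adjusted p = 0.0409). Spg7 passed only without KO replicate 3 (adjusted p = 0.0564 to 0.0927 in the other fits without 1 array), and Hspd1 only without KO replicate 2 (adjusted p = 0.0926 to 0.160 in the others).

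The closest gene families were set beside the members. The 53 cytosolic ribosomal protein genes had a median of −0.024 with 39 differences below 0. Limma called 0 of them, beside 7.31% of all genes, and 5 (9.43%) had an unadjusted p under 0.05, beside 20.7%. The 83 nuclear genes for subunits of the respiratory chain and the ATP synthase had a median of −0.068. Of these 0 were higher and 4 lower by limma (4.82%), and 1 was higher and 30 lower at an unadjusted p under 0.05 (37.3%). In 39 of the 83 (47.0%) all KO arrays lay below all WT arrays, beside 13.5% of all genes. The share was 18.2% of the mitochondrial ribosomal protein genes and 18.9% of all genes in their range of level. The families lay at unlike levels, with medians of 10.5 for the respiratory chain genes, 9.14 for the members and 12.5 for the cytosolic ribosomal proteins. The typical difference of a gene varied with level, and the shares were not compared at like level. The difference between these families was not tested. Cox6a1, a cytochrome oxidase subunit, fell by 0.23 (limma adjusted p = 0.0152), missing the threshold without WT replicate 1 and without WT replicate 3 (adjusted p = 0.0637 to 0.0820). Ndufa1, of complex I, fell by 0.22 (limma adjusted p = 0.0164), which passed without KO replicate 1 or without WT replicate 2 and missed in the other 4 such fits (adjusted p = 0.0545 to 0.0914). Of the 14 genes above 0, Ndufv3 and Cox8b had the smallest p and did not pass. They differed by 0.11 and 0.16 (limma adjusted p = 0.137 and 0.254), Cox8b at a level below background.

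Other features of the cultures differed between the genotypes, and their part in these values was not tested. Of 26 cell cycle genes 20 fell and 0 rose by limma, with 0 higher at an unadjusted p under 0.05, and the median was −0.28. That is 76.9% called, beside 7.31% of all genes and 11.5% of those in the members' range of level. The calls downward made up 3.97% and 6% of these. Mki67, a marker of dividing cells, had 8.71, 8.92 and 8.91 in the KO arrays, against 9.69, 9.58 and 9.58 in the WT arrays. The 2 cell cycle genes above 0 were Rrm2 (0.02) and Mcm7 (0.0013). On the WT side, replicate 1 held the highest value for 19 of the 26 cell cycle genes, the array that also held it for 36 of the 77 members. Pparg, the master regulator of fat cell differentiation, fell by 1.27 (limma adjusted p = 0.0011). Of 6 measured adipocyte markers 4 were above background and Adipoq and Lep were below it, with Fabp4 lower by the test. The log2 levels of the 6 summed to 43.4 to 43.5 in the KO arrays, against 43.7 to 44.1 in the WT arrays. This sum and those below add log2 values, dim markers included, and are not amounts of marker RNA. Of the 8 stromal markers 7 were above background, with Lepr below it, and they summed to 69.5 to 69.7 in the KO arrays and 69.3 to 69.6 in the WT arrays. Within that sum Pdgfra and Pdgfrb rose and Nt5e fell. Of 5 measured osteoblast markers 3 were above background, Alpl rose by 0.39 (limma adjusted p = 0.0026) and Col1a1 fell by 0.28 (limma adjusted p = 0.0124), and the sums were 42.38 to 42.72 in the KO arrays and 42.02 to 42.49 in the WT arrays. Of 8 macrophage markers Cd68 and C1qa were above background and Ptprc, Csf1r and Adgre1 below it, and Cd68 fell by 0.19 (limma adjusted p = 0.0153), with sums of 53.7 to 54.1 in the KO arrays and 53.3 to 54.3 in the WT arrays.

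**Figure D5:**
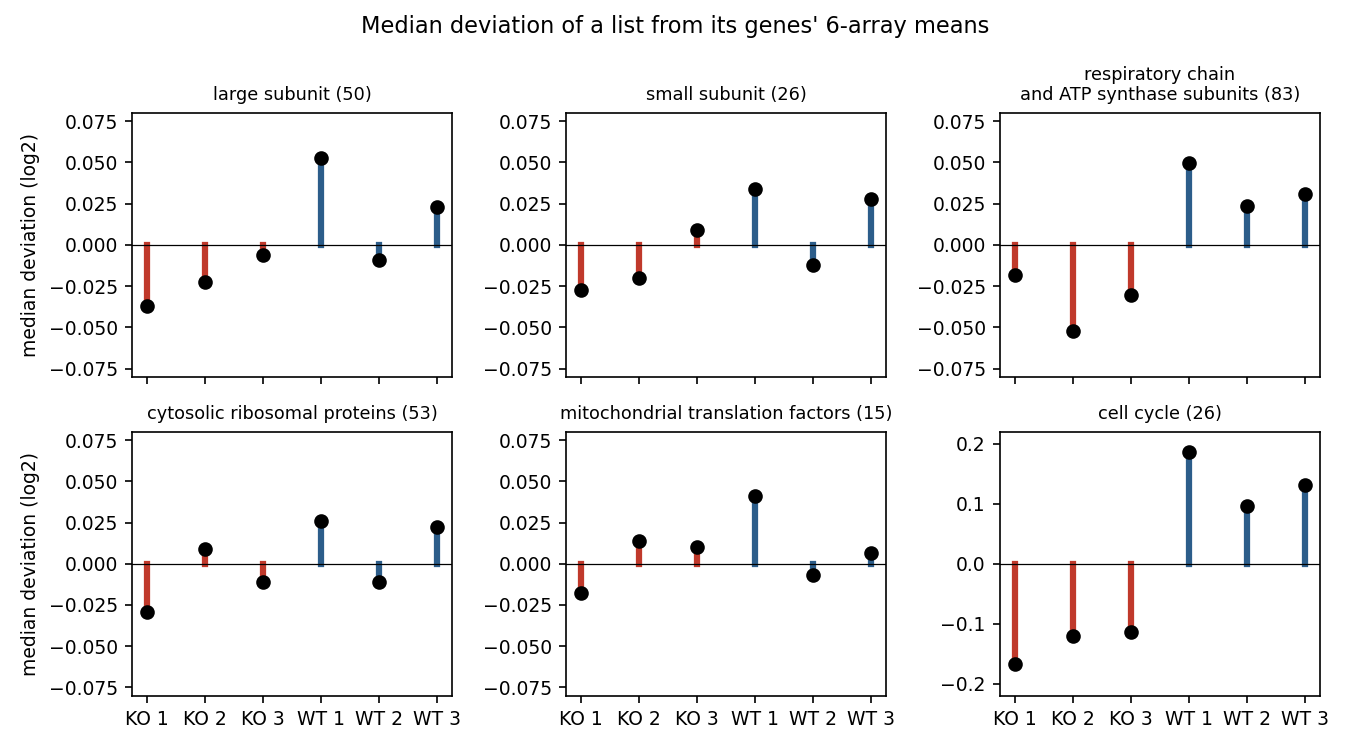
Median deviation of each list from its genes' means over the 6 arrays (log2, vertical axis) on every array, KO arrays left of WT arrays, with the number of genes in brackets; the cell cycle panel has a wider axis. In both ribosomal subunits WT replicate 1 is highest and WT replicate 2 lies just below zero, whereas in the cell cycle list all KO arrays are below zero and all WT arrays above it.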

How the data were processed

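The deposited values are log2 expression levels that the authors made with RMA, a robust average over probes; Partek and the Affymetrix Expression Console are named as well (per the submitters' processing notes). RMA subtracts background, equalises the distributions of the arrays and combines probes by median polish, which can return equal values on several arrays (1 member had 3 equal values within a group). Of 35556 probe sets, the platform annotation gives 21789 a single symbol, 1621 several and 12146 none; 21698 had a gene identifier in the RefSeq gene table of GRCm38.p6 and took its symbol. Arrays give no read depth, and their number limits the precision.

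KO and WT were compared with limma 3.58.1 in R 4.3.3 (lmFit and eBayes, two-sided, no covariate, no filter) over 19938 genes with Benjamini-Hochberg adjustment at 0.05, a step tested on simulated data. Members, lists, subunit classes and tests were chosen with earlier results of these data known, so no p-value was computed over a list. Members were named by a rule, with values on every array or their range. They are every called member, the 4 of smallest p per direction and subunit, and the 2 highest and 2 lowest in level. Of each companion list, the 2 genes of smallest p in each direction were picked out, together with a set of regulators. Only part of these companion genes are named in the text, so they do not stand for the directions of their list. Mrpl22, Mrps36, Ska3, Ncapd2, Fau, Mrpl32, Mrpl46, Mrps11, Mrpl51 and Mrpl57 were singled out after their values were seen. Motif spellings were chosen after several spellings per factor had been searched. Alternatives were renormalization, array weights, a filter on dim genes, other probe-set and variance rules, a replicate block and leaving out each array.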

Additional observations from a re-analysis of the deposited data

How the results depend on the processing

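The median of the 77 members stayed below 0 in all 15 alternatives and moved beyond the spread between arrays with cyclic loess, to −0.0202 for all members and −0.0230 for the large subunit, and without WT replicate 1, to −0.0239 and −0.0207. The number of members called depended more on the setting. With only genes above background tested it was 8 (6 in the large and 2 in the small subunit), where fewer genes enter both limma's moderation and the adjustment. With array weights it was 13 (10 and 3), where 17.1% of all genes were called and WT replicate 3 was weighted 7.41 and each other array 0.524 to 1.19. With replicate number as a block limma called 0 members (0 and 0) and 0.261% of all genes. At an unadjusted p under 0.05 there were then 15 members (19.5%, beside 16.1% of all genes). Same-numbered arrays deviated from their group means with correlations of −0.299, −0.262 and −0.0151, none of them above 0. The 3 deviations of a group sum to 0, so these values cannot settle whether a number stands for a shared preparation. The labels do not say. Leaving out 1 array gave 0 to 3 members called (0 without WT replicate 3, with 11 at an unadjusted p under 0.05; 1 without WT replicate 1, KO replicate 1 or KO replicate 3; 2 without KO replicate 2; 3 without WT replicate 2), 0 to 2 in the large and 0 to 2 in the small subunit. Of all genes 0.948% to 4.67% were called in these fits. The median then ran from −0.0568 to −0.0239 for all members. It ran from −0.0708 to −0.0207 for the large subunit and from −0.0417 to −0.0183 for the small subunit. Of 285 values of named members under an alternative, 281 kept their direction; Mrps17 turned to 0.0167 without WT replicate 1 and 0.0097 without KO replicate 1 (its lowest such value was −0.1255, without WT replicate 2), and Mrps18b to 0.0164 with the quantile step and 0.0065 with cyclic loess. Over all genes calls split into 862 higher and 639 lower with a further quantile step and into 859 and 667 with cyclic loess, beside 666 and 791. The block also uses up residual degrees of freedom. The cause of these moves was not tested for any setting. Assigning subunits by symbol alone or leaving out the 4 genes with an annotated pseudogene, both chosen after seeing the data, kept every count within 1.5 times. The 3 arrays a group limit the precision, and a gene that was not called may still differ by any size within its interval. Medians by place in the ribosome without 1 array were added after seeing the data.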

Other observations

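For 8 members a further probe set was assigned to the gene alone, and these give a second reading of the same transcripts. Of these 8, limma called 0, and 0 had an unadjusted p under 0.05. Mrps36 gave like differences on its probe sets, −0.15 on the dimmer and −0.14 on the brighter. Mrps5 gave −0.02 and −0.01, and Mrps33 gave 0.03 on both. The probe sets of Mrpl47 and Mrpl51 differed in sign. For Mrpl47 the dimmer probe set, below background, gave 0.02 and the brighter −0.11, and for Mrpl51 they gave 0.08 and −0.07. The probe set shared by Mrpl53 and Ccdc142 had 8.25, 8.25 and 8.17 in the KO arrays and 8.25, 8.22 and 8.25 in the WT arrays, a difference of −0.02.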
